A study of Danio rerio with 8 samples.

Results

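Mitochondrial ribosomal protein genes were read from bulk RNA sequencing of tail muscle with its intermuscular bones in zebrafish at 60 days post fertilization. The genes were taken by symbol, as every entry of the count table whose name starts with mrpl or mrps followed by a digit. This gave 73 of 25279 genes, of which 45 carry a large subunit symbol (mrpl) and 28 a small subunit symbol (mrps). Libraries came from runx2b-/- fish (n = 3) and from wild type fish (n = 3), and both groups carried the same Tg (sp7/eGFP) transgene, a reporter driven by the promoter of the osteoblast gene sp7. The comparison asked which transcripts differ when runx2b, a transcription factor gene of osteoblast differentiation, is mutated and intermuscular bone formation is studied. Each library is a piece of bulk tissue, in which fewer cells of a type and less RNA per cell cannot be told apart. Nothing in the labels tells separate fish from repeat libraries of one pool, so p-values here cover the variation among these libraries alone, and that variation may be technical.

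Mitochondria keep their own ribosome, which translates the few proteins encoded in mitochondrial DNA, all of them parts of the respiratory chain and the ATP synthase. Its RNA comes from the mitochondrial genome, but its proteins are encoded in the nucleus, made in the cytosol and imported. The small subunit reads the messenger RNA and the large subunit forms the peptide bonds at the inner membrane. Some of its proteins have relatives in bacterial ribosomes and others are found only in mitochondria. Skeletal muscle depends on this machinery for oxidative metabolism. The roles given below are known from human mitochondrial or bacterial ribosomes.

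Total counts ran from 17280098 to 20429162 in the runx2b-/- libraries and from 19890668 to 20482003 in the wild type libraries. The mutated gene runx2b had 4, 2 and 6 counts in the runx2b-/- libraries, against 2, 2 and 6 in the wild type libraries, too few to check the genotype labels. Markers of fast muscle were abundant in all libraries. They summed to 206470 to 362520 CPM (counts scaled to TMM-adjusted library size) in runx2b-/- and 256060 to 383660 CPM in wild type. Summed slow muscle markers stood at 9008 to 9415 CPM in runx2b-/- and 8318 to 11017 CPM in wild type. Of the other marker lists, those of osteoblasts (1.82 to 9.06 against 34.0 to 49.3 CPM), oocytes (0 to 0.483 against 9.42 to 14.9 CPM), tendon (695 to 1072 against 419 to 530 CPM), endothelium (84.0 to 98.2 against 61.6 to 67.8 CPM), red blood cells (1341 to 1559 against 1056 to 1228 CPM) and adipocytes (8.68 to 10.2 against 11.7 to 13.8 CPM) did not overlap between runx2b-/- and wild type. Neutrophil (17.4 to 20.6 against 19.8 to 29.3 CPM), macrophage (27.2 to 39.5 against 37.4 to 75.2 CPM) and epidermis markers (73.5 to 94.8 against 52.7 to 174 CPM) overlapped, and no listed marker in the table was at 0 in every library. At an edgeR adjusted p under 0.05, 1 gene was called lower in each of the neutrophil, epidermis, osteoblast, oocyte and adipocyte lists. Called higher were 2 red blood cell genes and 1 endothelium gene, and no gene of the muscle and macrophage lists was called. Over all tested genes 3.37% were called, and 24.6% of genes taken singly did not overlap between the groups. The list named tendon held tnmd, scxa and xirp2a, of which 1 was called higher. As xirp2a is a Xin repeat gene of muscle attachments, this sum does not stand for tendon cells alone. The list named oocytes included the vitellogenin gene vtg1, which is not a germ cell gene, and of its 6 genes 5 were in the table and 1 was tested. Its sum may therefore rest on 1 gene and does not show that oocytes were present. Of the red blood cell list 4 of 6 genes were in the table, and of the adipocyte list 2 of 4. Such sums can rest on few genes and do not measure cell numbers. The part of these cell types, and of sex, which the sources used here do not give, in any difference described here was not tested.

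Of the transcripts of the mitochondrial ribosome, a single one differed between the genotypes past the test's threshold. All 73 genes were abundant enough to be tested, and 1 of them, the small subunit gene mrps17, fell in runx2b-/- tail muscle at an adjusted p under 0.05. No gene of the large subunit was called, and no gene of either subunit was called higher. Over all 14107 tested genes, 3.37% were called, 1.76% as higher and 1.62% as lower. Adjusted p-values here and below come from edgeR's quasi-likelihood test with Benjamini-Hochberg adjustment over all tested genes, unless another tool is named. DESeq2 and limma voom each called 1 small subunit gene and no large subunit gene. DESeq2 called 3.86% of the 16933 genes it gave an adjusted p, and voom 2.93% of the 14107 tested genes.

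The estimated differences centred near 0. The median log2 fold change (runx2b-/- minus wild type) was 0.0052 for the large subunit and -0.065 for the small subunit, beside -0.0087 over all tested genes. The quartiles were -0.12 and 0.17 for the large subunit and -0.30 and 0.15 for the small subunit, beside -0.29 and 0.27 over all tested genes. No member reached a difference of 1 on the log2 scale, as 6.27% of all tested genes did. The 95% interval of the difference lay inside a 2-fold change in either direction for 69 of the 73 genes and inside a 1.5-fold change for 38. Over all tested genes this held for 60% and for 2855 of 14107. The median SE was 0.18 for the members and 0.25 over all tested genes, so these shares compare genes of unlike precision. The 4 members whose interval reached past 2-fold were mrps17, mrpl9, mrpl17 and mrpl36, each of them lower in its point estimate.

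**Figure D1:**
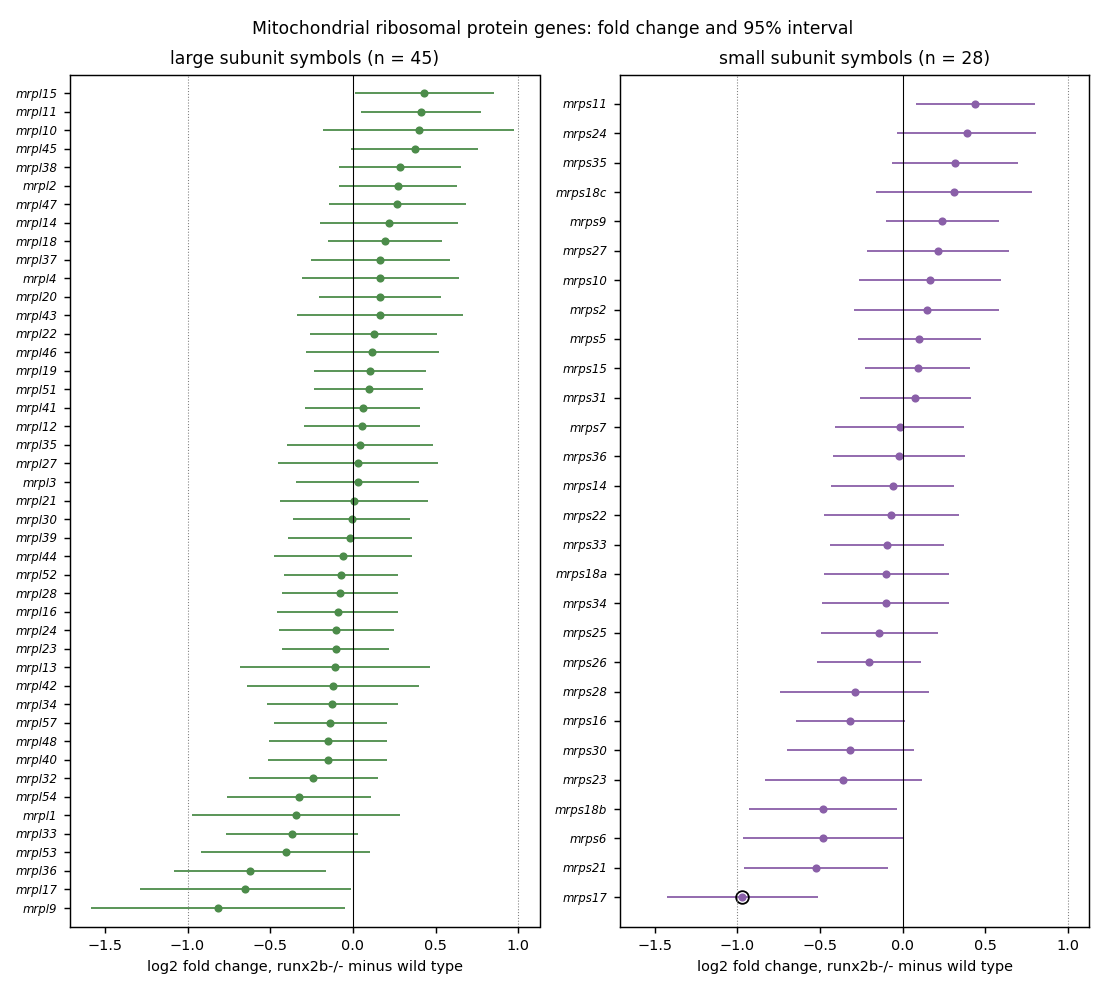
Log2 fold change (runx2b-/- minus wild type, x axis) of each large subunit gene (left) and small subunit gene (right), with its 95% interval from edgeR. Dotted lines mark 2-fold changes and the black ring marks mrps17, the 1 gene called; the estimates run from -0.97 to 0.44.

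mrps17 encodes a small subunit protein with a bacterial relative that binds ribosomal RNA. The gene lies on chromosome 21, from 37726360 to 37733658 on the plus strand, with a model of 658 bases. Coordinates here and below are those of the deposited count table, which names no build, and GRCz11 is the build in the submitters' processing notes. It had 65, 61 and 53 counts in the runx2b-/- libraries, against 155, 145 and 88 in the wild type libraries. Scaled by TMM-adjusted library size this was 3.03, 3.69 and 2.89 CPM in runx2b-/- and 6.92, 6.81 and 5.02 CPM in wild type. Every runx2b-/- library was below every wild type library, and wild type library 3 was the nearest to them. The mean was 3.20 ± 0.424 CPM in runx2b-/- and 6.25 ± 1.07 CPM in wild type (SD, n = 3 each), which is 1.96-fold lower (log2 fold change -0.97, SE 0.21, 95% interval -1.43 to -0.52, edgeR adjusted p = 0.0261). The call was lost without runx2b-/- library 1, 2 or 3 (adjusted p = 0.133, 0.0702 and 0.143), without wild type library 2 (0.112) and with scaling by library size only (0.0523). The log2 fold change ran from -1.10 to -0.86 over all alternatives, and the adjusted p from 0.00215 to 0.147.

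In the large subunit, 5 of 45 genes had an unadjusted p under 0.05, a mark reached by 19.4% of all tested genes, and none kept it after adjustment. The groups did not overlap in 4 of the 45, where 24.6% of all tested genes did not overlap. The lowest adjusted p of the subunit was that of mrpl36, which encodes a very small protein with a bacterial relative. It had 3.17, 2.48 and 2.40 CPM in runx2b-/- and 4.29, 4.37 and 3.77 CPM in wild type. The groups did not overlap, with a log2 fold change of -0.62 (SE 0.21, adjusted p = 0.132). mrpl9, the least abundant gene of all 73, had 0.653, 0.725 and 0.600 CPM in runx2b-/- and 1.43, 1.17 and 0.856 CPM in wild type, on 11 to 14 counts per runx2b-/- library and 15 to 32 per wild type library. Its difference was -0.81 with an SE of 0.35 (adjusted p = 0.229), so the depth leaves it poorly measured.

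mrpl17, like mrpl15 a gene with a bacterial relative, had 4.10, 4.05 and 2.40 CPM in runx2b-/- and 6.83, 6.29 and 3.37 CPM in wild type. Library 3 was the lowest in each genotype and the groups overlapped. The difference of -0.65 (SE 0.29) missed the threshold (adjusted p = 0.250), and was -0.43 without runx2b-/- library 3 (adjusted p = 0.571). Leaving out wild type library 3 gave -0.89 and a call (adjusted p = 0.0414), the only setting in which a large subunit gene was. mrpl11, whose protein lies where translation factors bind, leaned the other way. It had 42.1, 30.7 and 35.4 CPM in runx2b-/- and 25.5, 25.5 and 30.4 CPM in wild type. The groups lay close together without overlap, with a difference of 0.41 (SE 0.17, adjusted p = 0.202). mrpl15 stood at 10.1, 7.49 and 10.4 CPM in runx2b-/- and 5.72, 7.70 and 7.36 CPM in wild type, where runx2b-/- library 2 lay among the wild type values (0.43, SE 0.19, adjusted p = 0.245). mrpl45, whose human protein anchors the ribosome at the inner membrane, had 27.5, 18.4 and 21.4 CPM in runx2b-/- and 18.4, 15.8 and 17.8 CPM in wild type (0.37, SE 0.18, adjusted p = 0.272).

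The stalk of the large subunit recruits translation factors through the proteins of mrpl10 and mrpl12. mrpl12 had 46.1, 34.0 and 43.0 CPM in runx2b-/- and 38.2, 40.0 and 40.3 CPM in wild type (log2 fold change 0.056, SE 0.16). The 3 runx2b-/- libraries spanned the wild type values. mrpl10, one of the least abundant genes of the set, had 2.05, 2.05 and 1.80 CPM in runx2b-/- and 1.61, 1.17 and 1.71 CPM in wild type (0.40, SE 0.27, adjusted p = 0.452). Its groups did not overlap, but its 95% interval ran from -0.18 to 0.98.

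In the small subunit, 4 of 28 genes had an unadjusted p under 0.05 (14.3%, beside 19.4% of all tested genes). The groups did not overlap in 9 of 28. Of these 9, 6 were lower in runx2b-/- (mrps16, mrps17, mrps18b, mrps21, mrps23 and mrps26) and 3 were higher (mrps9, mrps11 and mrps15). The share of 32.1% stood beside 8.89% in the large subunit and 24.6% over all tested genes, and the difference between the subunits was not tested. By direction, 11.7% of all tested genes were apart as lower and 12.8% as higher. mrps11, whose protein sits on the platform of the subunit beside the ribosomal RNA, had 11.8, 13.1 and 9.99 CPM in runx2b-/- and 8.62, 8.92 and 8.11 CPM in wild type. It had the largest positive difference of all 73 genes, at 0.44 (SE 0.17, adjusted p = 0.169), and was not called. mrps21, also of a protein with a bacterial relative, had 5.59, 4.35 and 4.53 CPM in runx2b-/- and 8.40, 6.39 and 6.05 CPM in wild type (-0.52, SE 0.20, adjusted p = 0.173).

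mrps16, of a protein with a bacterial relative, had 13.9, 12.7 and 12.4 CPM in runx2b-/- and 16.3, 17.0 and 15.3 CPM in wild type. The difference was small, at -0.32 (SE 0.15, adjusted p = 0.277), but the 3 libraries of each genotype lay close together. mrps6, whose bacterial relative lies beside S18 on the platform, had 6.67, 8.22 and 6.22 CPM in runx2b-/- and 13.3, 8.36 and 7.76 CPM in wild type. Wild type library 1 stood well above the other two wild type values, and the difference of -0.48 (SE 0.22) was not called (adjusted p = 0.260). mrps23 (-0.36, SE 0.22) and mrps26 (-0.20, SE 0.14), both of proteins found only in mitochondria, were not called either, and mrps26 averaged 45.7 ± 2.19 CPM in runx2b-/- and 52.6 ± 1.62 CPM in wild type (SD, n = 3 each).

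**Figure D2:**
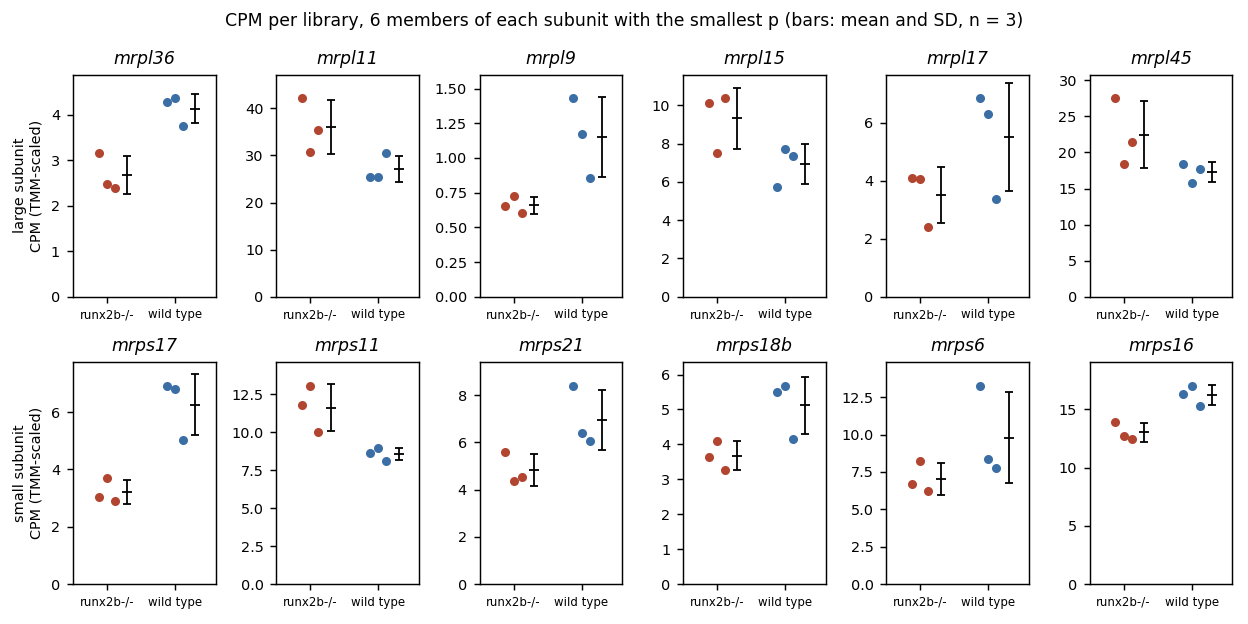
CPM in each library (y axis, from 0) for the 6 large subunit genes (top) and the 6 small subunit genes (bottom) with the smallest unadjusted p, runx2b-/- left and wild type right, with the mean and SD of 3 libraries beside the points. mrps17 fell to 3.20 CPM in runx2b-/-, against 6.25 CPM in wild type; in mrpl15, mrpl17, mrpl45 and mrps6 the groups overlap.

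Zebrafish, like humans, have 3 genes of the mrps18 family, whose human proteins occupy different places: that of MRPS18C takes the bacterial position in the small subunit, that of MRPS18B a separate site in the small subunit, and that of MRPS18A a site in the large subunit despite its name. mrps18b had 3.64, 4.11 and 3.27 CPM in runx2b-/- and 5.49, 5.68 and 4.17 CPM in wild type, without overlap (-0.48, SE 0.21, adjusted p = 0.226). mrps18c had 10.7, 6.04 and 7.80 CPM in runx2b-/- and 7.46, 6.57 and 5.82 CPM in wild type (0.31, SE 0.22, adjusted p = 0.476). Neither of these paralogs was called, and the estimate for mrps18c was 0.064 without runx2b-/- library 1 (adjusted p = 0.926). mrps18a, the most abundant of the family, had 23.5, 19.1 and 18.0 CPM in runx2b-/- and 25.6, 19.5 and 19.7 CPM in wild type (-0.099, SE 0.17).

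Symbols and structure also part for a pair of further genes. The human protein of MRPS30 is built into the large subunit, and that of MRPS36 is now assigned to the 2-oxoglutarate dehydrogenase complex of the citric acid cycle. mrps30 had 11.3, 10.4 and 9.77 CPM in runx2b-/- and 15.8, 12.4 and 11.0 CPM in wild type (-0.32, SE 0.18, adjusted p = 0.359). mrps36 had 44.8, 33.1 and 28.0 CPM in runx2b-/- and 34.5, 35.0 and 38.2 CPM in wild type (-0.023, SE 0.18). Neither separated the genotypes, and with mrps30 and mrps18a counted in the large subunit and mrps36 left out the medians were -0.0072 for the large subunit and -0.060 for the small subunit.

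The members differed far more from each other than between genotypes. Per kilobase of the gene model given in the count table, the highest large subunit gene exceeded the lowest by 121-fold, and the highest small subunit gene the lowest by 18.5-fold. The 5 most abundant large subunit genes per kilobase were mrpl2, mrpl41, mrpl47, mrpl16 and mrpl52, and the 5 most abundant small subunit genes were mrps35, mrps36, mrps26, mrps14 and mrps34. mrpl2, of a protein at the peptidyl transferase centre, was the highest, with 69.1 ± 8.83 CPM per kilobase in runx2b-/- and 57.2 ± 6.37 in wild type (SD, n = 3 each). mrpl41 followed with 49.6 ± 6.93 in runx2b-/- and 47.6 ± 4.08 in wild type, mrpl47 with 49.7 ± 11.9 and 41.2 ± 5.47, and mrps35, of a protein found in mitochondrial and not bacterial ribosomes, with 49.9 ± 7.33 and 40.2 ± 6.08 CPM per kilobase. These 3 neighbours in the order lay within each other's SD in runx2b-/-.

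Further abundant genes followed at lower levels. mrpl16 had 37.5 ± 4.42 CPM per kilobase in runx2b-/- and 40.0 ± 6.30 in wild type, and mrpl52, of a protein found only in mitochondria, 31.9 ± 2.77 and 33.6 ± 4.19. mrps14 stood at 29.4 ± 4.52 in runx2b-/- and 30.6 ± 4.02 in wild type and mrps34 at 28.2 ± 3.75 and 30.2 ± 5.51 CPM per kilobase (SD, n = 3 each). At the low end stood mrpl9 at 0.379 ± 0.0361 in runx2b-/- and 0.663 ± 0.165 in wild type, mrpl10 at 1.32 ± 0.0978 and 1.01 ± 0.192, and mrpl36 at 1.23 ± 0.194 and 1.90 ± 0.149. The lowest small subunit genes were mrps25 at 2.31 ± 0.115 in runx2b-/- and 2.55 ± 0.357 in wild type and mrps23 at 2.63 ± 0.0782 and 3.36 ± 0.639. These levels rest on model lengths, and that of mrps25 is 6188 bases, where the median member has 1065. The median member had 10.3 CPM per kilobase, beside 1.28 over all tested genes, 94.1 for nuclear genes of the respiratory chain and ATP synthase and 211 for cytosolic ribosomal proteins. Across the 73 genes, log2 levels in runx2b-/- and in wild type had a Pearson's r of 0.98, a description over genes that share the same libraries.

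**Figure D3:**
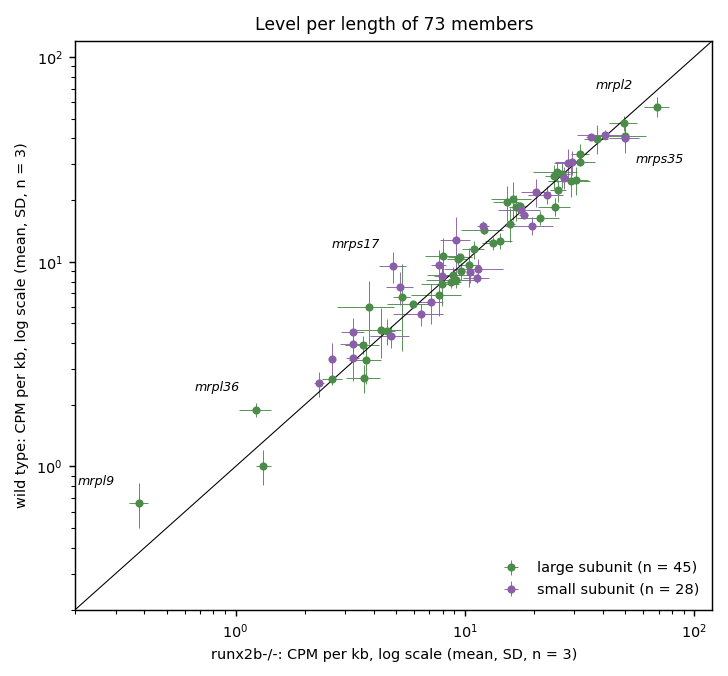
Mean CPM per kilobase in runx2b-/- (x axis) and in wild type (y axis), both on log scales, for 45 large and 28 small subunit genes; bars are the SD of 3 libraries and the line marks equal levels. Genes spread from mrpl9 to mrpl2 along the line, and mrps17 lies above it.

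The remaining 44 members, 32 of the large and 12 of the small subunit, had log2 fold changes from -0.41 to 0.39, and the smallest unadjusted p among them was 0.0673. Their mean levels ran from 2.35 to 42.3 CPM, so that even the lowest of them rested on more counts than mrpl9. Among them, mrps9 had 15.24, 15.35 and 16.04 CPM in runx2b-/- and 14.8, 11.7 and 13.0 CPM in wild type (0.24, SE 0.16), and mrps15 had 18.7, 18.9 and 20.2 CPM in runx2b-/- and 18.5, 18.5 and 17.3 CPM in wild type (0.091, SE 0.15). Both were separated by a narrow gap and neither was called. They are named because their groups did not overlap.

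The first library of each genotype was high for many members at once. The 73 genes held 0.163%, 0.115% and 0.112% of counts in runx2b-/- libraries 1 to 3 and 0.149%, 0.127% and 0.110% in wild type libraries 1 to 3. After scaling, runx2b-/- library 1 was the highest of the 6 libraries for 28 genes and wild type library 1 for 30, where these libraries were the highest for 15.9% and 21.8% of all tested genes. Median deviations from a gene's mean were 0.15 for the large subunit and 0.072 for the small subunit in runx2b-/- library 1, and 0.085 and 0.16 in wild type library 1, on the log2(CPM + 0.5) scale. In the other 4 libraries both medians were below 0. The 10 most abundant genes took 47.4% and 48.3% of counts in these libraries and 51.0% to 54.8% in the others. The part of this in the members' levels was not tested. Without both of these libraries no member was called, mrps17 stood at -0.86 (adjusted p = 0.147), and the medians were -0.060 for the large and -0.075 for the small subunit.

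**Figure D4:**
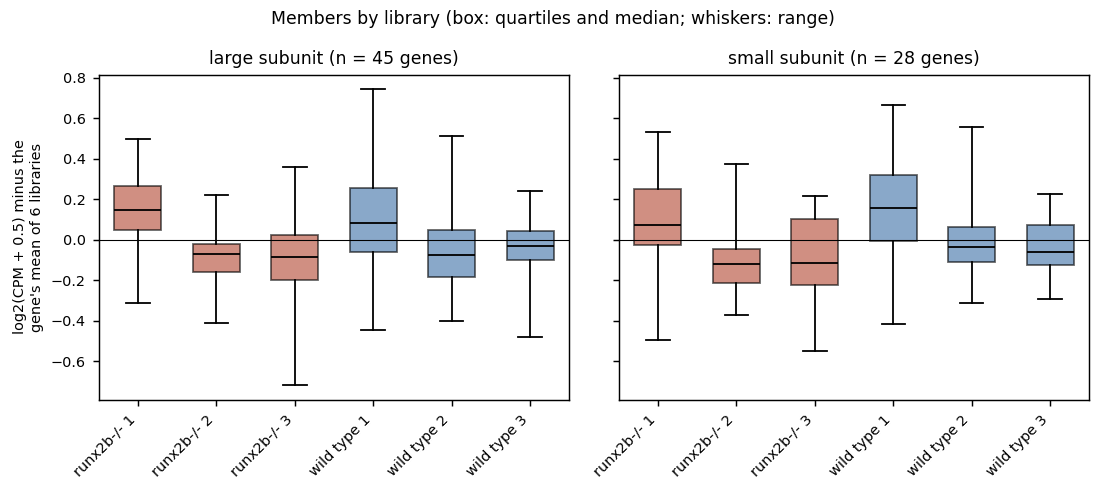
Deviation of each gene's log2(CPM + 0.5) from its mean over 6 libraries (y axis) by library, for 45 large subunit genes (left) and 28 small subunit genes (right), runx2b-/- in red and wild type in blue. The first library of each genotype has a median above 0 in both subunits and the other 4 have a median below 0.

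The balance of the subunits was read as the summed counts per kilobase of large subunit genes over those of small subunit genes. It was 1.78, 1.75 and 1.72 in the runx2b-/- libraries and 1.68, 1.65 and 1.72 in the wild type libraries. The lowest runx2b-/- library and the highest wild type library were almost equal. The means were 1.75 ± 0.0273 in runx2b-/- and 1.68 ± 0.0325 in wild type (SD, n = 3 each), a ratio of 1.04, given without a test. With mrps30 and mrps18a moved to the large subunit and mrps36 left out, the balance ran from 2.08 to 2.24 in runx2b-/- and from 2.07 to 2.17 in wild type, and the groups overlapped. Summed levels were 790 ± 88.0 CPM in runx2b-/- and 754 ± 33.2 CPM in wild type for the large subunit, and 514 ± 48.5 and 512 ± 22.9 CPM for the small subunit.

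Mitochondrial ribosomal protein genes are short, and length went with direction over the whole table. Across all tested genes the log2 fold change had a Spearman's rho of 0.187 with model length, and across the 73 members of 0.181, both descriptions over genes that share libraries. Tested genes of 500 to 2000 bases had a median of -0.099, while the 65 members of those lengths had a median of -0.0072. With a correction for length the medians were 0.10 for the large and 0.019 for the small subunit, and mrps17 kept its call (-0.87, adjusted p = 0.0418).

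The members are scattered over 22 chromosomes, with at most 7 on 1 of them (chromosome 19, which holds mrpl3, mrpl9, mrpl24, mrpl36, mrpl53, mrps18b and mrps21). Many sit head to head with another gene. In the models of the count table, 27 of the 73 (37%) had the start of a gene on the opposite strand within 1000 bases upstream, where 7.74% of all tested genes did, a description given without a test. Of these partners 23 were tested and 0 were called by edgeR, where 3.37% of all tested genes were called. The 23 include the members mrps11 and mrpl46. mrps11 and mrpl46 form such a pair with each other, 221 bases apart on chromosome 7 (14266537 to 14290399 and 14290620 to 14298501). mrpl46 had 19.1, 21.2 and 17.0 CPM in runx2b-/- and 21.8, 16.9 and 14.1 CPM in wild type (0.12, SE 0.18), and its groups overlapped where those of mrps11 did not. Several partners serve the mitochondrion themselves: mrpl36 lies 243 bases from ndufs6 and mrpl47 lies 419 bases from ndufb5, both of respiratory complex I, and mrpl20 lies 569 bases from sdhb of complex II. Their log2 fold changes were -0.00093 for ndufs6, -0.18 for ndufb5 and -0.10 for sdhb.

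The models of 1 member (mrps22, with ech1) overlapped the exons of another tested gene on the same strand and those of 5 (mrpl4, mrpl13, mrpl27, mrps18c and mrps25) overlapped on the opposite strand. The strand setting of the count is not given in the sources used here, so the values of the 5 genes with an overlap on the opposite strand are uncertain. No strand setting can part mrps22 from ech1, so the values of mrps22 are uncertain under any setting. mrps17 had no such overlap.

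The genes that build, run and supply the mitochondrial ribosome were read from lists chosen with earlier results of these data known. An unadjusted p under 0.05 was reached by 19.4% of all tested genes, the share to set beside each count below. Of 19 tested assembly factors none was called and 2 had an unadjusted p under 0.05, with a median log2 fold change of -0.11; c1qbp, of a mitochondrial matrix protein, averaged 110 ± 18.4 CPM in runx2b-/- and 102 ± 6.15 CPM in wild type, and ngrn stood at 0.44 (SE 0.22, adjusted p = 0.295). Of 19 translation factors none was called and 3 had an unadjusted p under 0.05 (median -0.056). The elongation factor gene tufm averaged 32.8 ± 5.23 CPM in runx2b-/- and 27.2 ± 3.90 CPM in wild type (0.27, SE 0.17, adjusted p = 0.436), and slirp, of a messenger RNA binding protein, stood at -0.39 (SE 0.16, adjusted p = 0.202). Of 16 genes of aminoacyl-tRNA synthetases, which load transfer RNAs, none was called by edgeR, 1 was by DESeq2, and 4 had an unadjusted p under 0.05 in edgeR (median 0.072). kars, which serves cytosol and mitochondria, stood at 0.44 (SE 0.17, adjusted p = 0.186) and hars at 0.68 (SE 0.19, adjusted p = 0.0695).

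Of 17 genes of mitochondrial transcription and DNA maintenance and 17 regulators of mitochondrial biogenesis, none was called and 2 in each list had an unadjusted p under 0.05 (medians -0.056 and 0.048). tfam, whose protein packages mitochondrial DNA and takes part in its transcription, averaged 29.1 ± 1.70 CPM in runx2b-/- and 23.4 ± 5.12 CPM in wild type (0.31, SE 0.18, adjusted p = 0.366). hsd17b10, a part of the enzyme that trims mitochondrial transfer RNAs, stood at 0.41 (SE 0.19, adjusted p = 0.257), yy1b at 0.048 (SE 0.19) and mycb at -0.21 (SE 0.43). Of 37 import and chaperone genes none was called and 7 had an unadjusted p under 0.05 (median -0.054), with tomm20b at -0.052 (SE 0.17) and grpel2 at -0.046 (SE 0.16).

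Among 66 nuclear genes of oxidative phosphorylation, 2 (ndufa4 and cox6b1) fell and none rose by edgeR, a share near the 3.37% called over all tested genes (median -0.033). ndufa4 averaged 6.86 ± 0.481 CPM in runx2b-/- and 13.3 ± 3.07 CPM in wild type (-0.96, SE 0.19, adjusted p = 0.0185), and cox6b1 averaged 6.66 ± 0.0911 CPM in runx2b-/- and 11.6 ± 1.38 CPM in wild type (-0.80, SE 0.17, adjusted p = 0.0222). Both encode proteins known from cytochrome c oxidase. The 13 protein genes of mitochondrial DNA, whose products are made on this ribosome, were lower in their estimates in 12 cases, with a median of -0.30. edgeR called none of them, DESeq2 called 3 (3.86% over all genes it tested) and voom 0, and in edgeR 6 had an unadjusted p under 0.05, or 46.2%, beside 19.4% of all tested genes. The genotypes did not overlap in 7 of the 13, all lower in runx2b-/-. Among all tested genes 24.6% did not overlap and 11.7% were apart as lower. The 13 genes lie on the same mitochondrial genome and may not vary independently, so these counts are not 13 separate observations. Their median model has 786 bases, and the part of length in their estimates was not tested. mt-atp6 averaged 8127 ± 1497 CPM in runx2b-/- and 13764 ± 3872 CPM in wild type (-0.76, SE 0.22, adjusted p = 0.0820). mt-atp8, whose reading frame overlaps that of mt-atp6, stood at -0.78 (SE 0.24, adjusted p = 0.0988). This was the lowest estimate of the 13, of which 3 reached 0.5 in size. Both genes were named as the most abundant per kilobase, and they do not stand for the list. Of 81 cytosolic ribosomal protein genes none was called and 5 had an unadjusted p under 0.05. Their median was -0.13, with 74 of the 81 estimates below 0. These genes are short, with a median model of 1202 bases, and tested genes of 500 to 2000 bases had a median of -0.099. The part of length in this was not tested. The genotypes did not overlap in 19 of them, or 23.5%, beside 24.6% of all tested genes. All 19 were lower in runx2b-/-, where 11.7% of all tested genes were apart as lower. The most abundant per kilobase were rpl26 at -0.082 (SE 0.16) and rpl14 at 0.013 (SE 0.15).

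**Figure D5:**
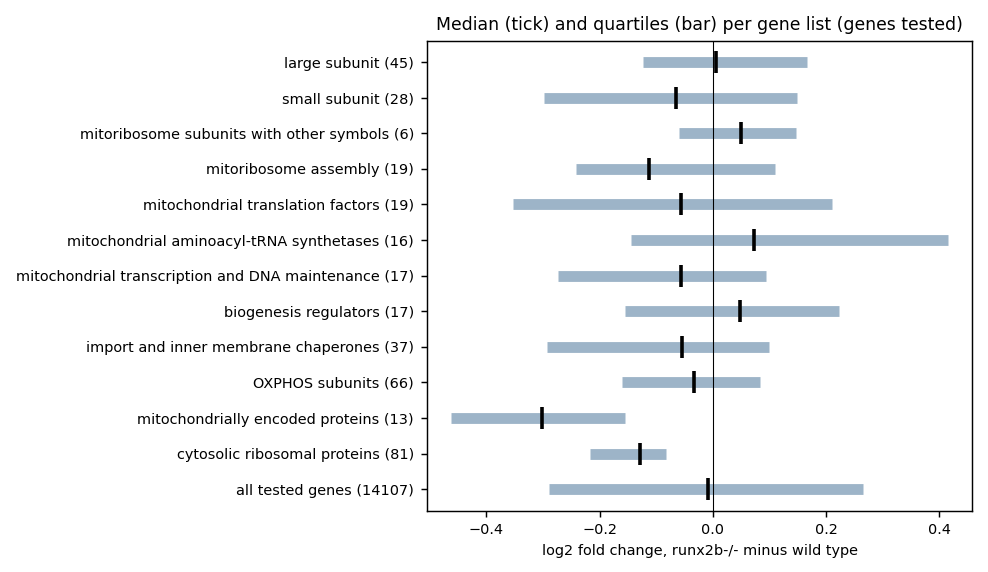
Median (tick) and quartiles (bar) of the log2 fold change (runx2b-/- minus wild type, x axis) for each gene list, with the number of genes tested in brackets. The subunits of the mitochondrial ribosome lie around 0, at 0.0052 and -0.065, and the protein genes of mitochondrial DNA lie lowest, at -0.30.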

How the data were processed

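Bulk libraries were built from Trizol RNA with a stranded kit for messenger RNA (TruSeq), per the labels' protocols. The authors deposited whole-number read counts per gene, not normalized, with a model length per gene, per the file headers. GRCz11 and Cell Ranger are named, without a role, per the submitters' processing notes. Which aligner, counter and strand setting were used is not stated in the labels or headers. The single-cell samples were not analysed here.

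Members were matched by symbol. Members and lists were chosen with earlier results of these data known. Lists came from general knowledge, and 3 genes that do not belong to their list were taken out after values were seen, so that ngrn is named in place of lyrm2. Named are the called members, the 6 of each subunit with the smallest unadjusted p, its 5 most and 2 least abundant per kilobase, and mrps18a, mrps18b, mrps18c, mrps30, mrps36 and mrpl12. From each other list, called genes are named (at most 4), or otherwise the 2 most abundant per kilobase. Other genes were named after their values were seen.

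Counts were tested in R 4.3.3 with edgeR 4.0.16 (filterByExpr with a minimum count of 10 and total of 15, TMM scaling, robust glmQLFit and glmQLFTest, genotype only), with DESeq2 1.42.0 and limma 3.58.1 voom as alternatives. The SE is the log2 fold change over the square root of F. The difference between genotypes is runx2b-/- minus wild type throughout. CPM values use TMM-scaled library sizes, with factors of 0.882 to 1.13, and 3 counts correspond to 0.134 to 0.181 CPM. No pair of libraries within a genotype agreed within sampling noise (chi-square over degrees of freedom of 25.5 to 95.3). Medians of lists, subunit balances and correlations have no test. Other alternatives were other scalings and filters, a replicate block, a length correction, other subunit assignments and leaving out libraries.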

Additional observations from a re-analysis of the deposited data

How the results depend on the processing

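Under the 17 alternatives run for the medians, that of the large subunit ran from -0.072 to 0.10 and that of the small subunit from -0.14 to 0.019. The ratio of the balance in runx2b-/- to that in wild type ran from 1.02 to 1.05 over the 9 alternatives run for it (leaving out libraries, other subunit assignments and CPM in place of counts per kilobase), while the balance itself was 2.17 in runx2b-/- and 2.12 in wild type with the other assignments, against 1.75 and 1.68 as reported. The sign of either median is therefore not settled. Large subunit calls ranged from 0 to 1 and small subunit calls from 0 to 1 when single libraries were left out. Small subunit calls were also 0 with library size only and 0 without both libraries numbered 1, an alternative chosen after seeing the data; the cause was not tested. Of 462 values of single named members under alternatives, 436 kept direction and call, 6 lost a call (all mrps17), 1 gained it (mrpl17) and 19 changed sign, none of them called. With the length correction the last were mrpl52 at 0.024, mrps14 at 0.040 and mrps36 at 0.067, and without both libraries numbered 1 mrpl41 at -0.013, mrpl12 at -0.064 and mrps34 at 0.045. Without single libraries, mrpl12 ran from -0.038 to 0.18, mrpl16 from -0.19 to 0.036, mrpl41 from -0.064 to 0.12, mrpl52 from -0.15 to 0.040, mrps14 from -0.19 to 0.045, mrps18a from -0.22 to 0.034, mrps34 from -0.19 to 0.050 and mrps36 from -0.23 to 0.12.

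Whether replicate numbers pair the samples is not stated in the labels. Deviations of same-numbered libraries correlated at -0.058, 0.025 and 0.030, and those of differently numbered libraries at -0.14 to 0.12. With 3 libraries per genotype these values cannot settle whether the libraries are paired. With a replicate block 377 genes were called instead of 476, with 0 large subunit calls and 1 small subunit call (mrps17, adjusted p = 0.0411), and medians of 0.0075 and -0.056. Depth limits mrpl9 most, which had 109 counts over 6 libraries.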

Other observations

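Further protein genes of the mitochondrial ribosome stand in the table under other names and were not matched by symbol. Of 6 with unrelated names (dap3, chchd1, aurkaip1, ptcd3, gadd45gip1 and ict1), none was called by edgeR, DESeq2 or voom. An unadjusted p under 0.05 was reached by 1 (16.7%, beside 19.4% of all tested genes). That was dap3, of a GTP-binding protein of the small subunit, with 16.7, 16.6 and 19.3 CPM in runx2b-/- and 14.1, 12.6 and 12.4 CPM in wild type, a difference of 0.42 on the log2 scale with an SE of 0.15 (adjusted p = 0.157 in edgeR). The genotypes did not overlap. gadd45gip1, at the exit of the large subunit's tunnel, had 82.3, 68.6 and 75.4 CPM in runx2b-/- and 70.2, 69.4 and 80.0 CPM in wild type (0.044, SE 0.15), and aurkaip1 stood at 0.057 (SE 0.16). Symbols in capitals were MRPL49 (-0.33, SE 0.20), MRPS12 (-0.32, SE 0.17) and MRPL55 (0.30, SE 0.17), with edgeR adjusted p of 0.394, 0.347 and 0.359. MRPS12, of a protein at the decoding site, had 11.8, 9.79 and 8.73 CPM in runx2b-/- and 13.3, 11.0 and 13.6 CPM in wild type.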
